A study of Homo sapiens with 27 samples.

Results

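The genes described here encode the proteins of the mitochondrial ribosome. They were chosen as all protein-coding genes whose GENCODE symbol begins with MRPL or MRPS followed by a number, which gave 78 genes of the 58721 in the count table and of its 19940 protein-coding genes. All 78 passed the filter on low counts, among 25199 genes tested. By their known place, 51 belong to the large subunit and 26 to the small subunit, and MRPS36 is now placed in the 2-oxoglutarate dehydrogenase complex instead. MRPS30 and MRPS18A carry small-subunit names but sit in the large subunit, and they are counted there. Of the 77 ribosomal members, 46 have a counterpart in bacterial ribosomes and 31 are specific to mitochondria.

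RNA was sequenced from 27 libraries of A375, an established human melanoma line driven by a mutant BRAF kinase, with 3 libraries in each of 9 groups: 3 cell populations, each under 3 treatments for 24 h. The knockout populations were made with guide 2 or guide 1 against TADA2B, an adaptor subunit of the histone-acetylating SAGA complex, and the control population, labelled WT, carried a guide against GFP and served as the non-targeting control. The treatments were trametinib at 20 nM, which blocks the kinase MEK, vemurafenib at 1 µM, which blocks mutant BRAF, and DMSO, the solvent. Whether the replicates were separate cultures, and whether a population was a clone or a pool, is not said in the labels; p-values therefore reflect the spread among libraries, which may be technical.

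Mitochondrial ribosomes translate the few proteins encoded by mitochondrial DNA, all of them subunits of the respiratory chain and of ATP synthase. Their ribosomal RNAs come from mitochondrial DNA, whereas all of their proteins are encoded in the nucleus, made in the cytosol, imported and assembled inside the organelle. Output of the nuclear genes is often discussed together with MYC, with nuclear respiratory factor 1 (NRF1), with ETS-family factors such as GABPA, and with the co-activators of the PGC-1 family.

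Library totals lay between 67502300 and 92513726 counts, and the smallest count of any member in any library was 95, for MRPS24. Levels are given as CPM, counts per 1000000 of the library's TMM-scaled total. Melanocyte-lineage markers fitted the labelled cell type only in part: SOX10, MITF and S100B were present, whereas the pigment genes PMEL and MLANA were low and TYR was at 0 in 9 libraries. The summed level of the 9 lineage markers, here and for the markers below as CPM of the unscaled total, lay between 352 and 869.9 in all knockout libraries, against 2279 to 2369 in control cells with trametinib, 2292 to 2347 with vemurafenib and 917 to 962 with DMSO. Among these markers the pigment enzyme DCT averaged 72.6 to 110.4 CPM in the drug-treated knockout groups, against 1042 in control cells with trametinib, 962.5 with vemurafenib and 0.823 with DMSO. Of the markers of other cell types, KRT1 was at 0 in all 27 libraries and CD3E in 19, but KRT10 lay between 36.8 and 53.2 CPM. In knockout and control libraries the keratinocyte markers summed to 63.3 to 80.1 CPM against 45.3 to 53.5, the fibroblast markers to 35.3 to 87.3 against 14.1 to 22.0, the leukocyte markers to 14.45 to 34.4 against 7.18 to 15.3, and the endothelial markers to 6.80 to 10.7 against 13.9 to 22.0. The part of these differences in the results below was not tested. TADA2B RNA, on the same unscaled total, was 26.3 to 28.9 CPM with guide 2 and 28.1 to 29.2 with guide 1 under DMSO, against 26.7 to 27.8 in control cells, so under DMSO its RNA level does not check the knockout labels. With trametinib it was 30.93 to 32.03 CPM with guide 2 and 37.1 to 37.8 with guide 1, against 40.4 to 42.2 in control cells, and with vemurafenib 29.4 to 31.1 with guide 2 and 33.2 to 35.2 with guide 1, against 40.9 to 44.5 in control cells. Vemurafenib replicate 3 of guide 2 stood apart from its group, at 12 and 8.18 chi-square units per degree of freedom from the other libraries, which were 3.44 apart. Without it, 14 members were lower and 38 higher in vemurafenib-treated knockout than control cells, where all libraries gave 17 and 36, and the vemurafenib response of knockout cells held 62 lower and 10 higher members in both cases.

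The 78 members together took 0.351% of all counts in trametinib-treated control cells, 0.358% with vemurafenib and 0.436% with DMSO. Their summed level was 3527 ± 67.2 CPM with trametinib, 3664 ± 54.0 CPM with vemurafenib and 4977 ± 142 CPM with DMSO (SD, n = 3 each). In guide 2 cells the sum was 3599 ± 66.1 CPM with trametinib, 3732 ± 87.5 CPM with vemurafenib and 4430 ± 102 CPM with DMSO. In guide 1 cells it was 3546 ± 106 CPM, 3693 ± 15.0 CPM and 4467 ± 84.9 CPM with the same 3 treatments. The drug-treated sums lay below every DMSO-treated sum in each population, and with TMM scaling the DMSO-treated sums of both knockout populations lay below those of control cells. As a share of unscaled counts the DMSO-treated libraries held 0.423 to 0.438% with guide 2 and 0.415 to 0.426% with guide 1, against 0.431 to 0.445% in control cells, so that guide 2 overlapped with control. In bulk RNA, fewer cells that carry a transcript and less of it per cell cannot be told apart.

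The upstream sequences of 4 members are shown because MRPL17 and MRPL3 had the strongest falls under the drugs and MRPL16 and MRPL44 were exceptions that rose. Each is the 250 bases before the RefSeq start on GRCh38.p14, written in the direction of transcription. The GENCODE gene begins inside each of the 4 stretches, so distances to the start hold for the RefSeq start only. Capitals mark a match to the NRF1 motif (GCGCA, any base, GCGC) in MRPL17, whose first base lies 81 bases before the start, and a match to the ETS motif (CCGGAAG) in MRPL3, 32 bases before the start. MRPL44 held neither motif. In MRPL16 a match to the ETS motif on the other strand starts in the last letters shown and runs past the start, so it is not in capitals here but is counted in the search described below.
MRPL17, chr11:6683341-6683590, minus strand: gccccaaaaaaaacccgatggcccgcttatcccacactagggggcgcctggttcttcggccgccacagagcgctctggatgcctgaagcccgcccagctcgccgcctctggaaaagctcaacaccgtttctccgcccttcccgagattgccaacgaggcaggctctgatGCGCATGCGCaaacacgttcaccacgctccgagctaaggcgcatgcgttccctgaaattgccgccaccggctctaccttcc
MRPL3, chr3:131502972-131503221, minus strand: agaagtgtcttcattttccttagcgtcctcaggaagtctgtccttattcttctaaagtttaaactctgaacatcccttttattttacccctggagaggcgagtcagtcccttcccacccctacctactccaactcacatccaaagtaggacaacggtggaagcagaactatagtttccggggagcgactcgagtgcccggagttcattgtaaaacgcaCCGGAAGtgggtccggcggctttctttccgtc
MRPL16, chr11:59810779-59811028, minus strand: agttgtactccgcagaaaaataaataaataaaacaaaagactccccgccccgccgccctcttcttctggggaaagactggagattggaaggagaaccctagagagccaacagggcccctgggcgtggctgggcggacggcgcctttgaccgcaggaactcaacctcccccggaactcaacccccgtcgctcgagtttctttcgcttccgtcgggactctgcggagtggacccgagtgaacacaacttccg
MRPL44, chr2:223957213-223957462, plus strand: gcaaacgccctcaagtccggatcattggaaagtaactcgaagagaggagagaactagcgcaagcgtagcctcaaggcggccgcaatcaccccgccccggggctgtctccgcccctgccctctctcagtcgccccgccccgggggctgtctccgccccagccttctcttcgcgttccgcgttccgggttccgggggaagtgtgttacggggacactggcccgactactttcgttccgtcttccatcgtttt

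Levels between genes were compared per kb of exon. Over all 27 libraries MRPL51 stood highest at 75.9 CPM per kb, followed by MRPS34 at 66.9 and MRPS21 at 61.2 CPM per kb. Antisense exons overlap 31.3% of MRPL51, and MRPS21 has 8 annotated pseudogenes, so the levels of these genes are uncertain too. The lowest were MRPL46 at 0.734, MRPS24 at 0.786 and MRPL38 at 1.90 CPM per kb. Of their exon bases, 11.3%, 23.2% and 37.5% lie on the same strand as exons of another gene, so these levels are uncertain. MRPL43 and MRPS2 stood near the middle of the order at 16.4 and 16.5 CPM per kb. The lengths are those of all annotated exons of a gene, so a long exon of a rare isoform lowers the level given.

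Trametinib lowered most mitochondrial ribosomal protein genes of control cells. MRPL17 was 3.62-fold and MRPL3 2.98-fold lower. Of the 78 members 68 fell and 7 rose, against 32.5% of all genes tested that fell and 36.4% that rose; with library totals alone in place of TMM scaling, which raised the median of all genes by 0.18, 56 fell and 9 rose. Shares of all genes here and below are with TMM scaling, so counts with library totals alone have no matching share beside them. The median log2 change was -0.57 over the members and 0.06 over all genes. Both subunits were affected: 44 of 51 large-subunit members fell and 6 rose (median -0.57), and 23 of 26 small-subunit members fell and 1 rose (median -0.57). Members with a bacterial counterpart had a median of -0.63, with 41 of 46 lower, and the mitochondria-specific members a median of -0.46, with 26 of 31 lower. Calls were made with edgeR's quasi-likelihood test at an adjusted p under 0.05 (Benjamini-Hochberg over all genes tested).

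MRPL17, the mitochondrial form of bacterial L17 (chr11:6680782-6683401, minus strand, hg38), was at 20.4, 19.0 and 19.2 CPM in the 3 trametinib libraries of control cells and at 69.2, 67.8 and 75.4 CPM in the 3 DMSO libraries. Its log2 change was -1.86 ± 0.05 (SE; adjusted p = 6.7e-35). The groups lay far apart, and no trametinib library came near a DMSO library. MRPL3, a core protein of the large subunit (chr3:131462212-131502983, minus strand), was at 74.1, 75.5 and 78.7 CPM with trametinib and at 222, 222 and 238 CPM with DMSO, a log2 change of -1.58 ± 0.03 (adjusted p = 2.3e-38). MRPL39, a mitochondria-specific protein of the large subunit (chr21:25585656-25607517, minus strand), was at 18.5, 17.3 and 19.8 CPM with trametinib and at 39.9, 43.1 and 42.8 CPM with DMSO. All trametinib libraries of MRPL3 and MRPL39 lay below all DMSO libraries. The next strongest falls were those of MRPL18, which is also known for a part in the import of 5S ribosomal RNA, at -1.17 ± 0.04, MRPL50 at -1.07 ± 0.04 and MRPL4, which fell by 49.9%. All 6 of these genes belong to the large subunit.

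The small-subunit gene with the largest fall was MRPS6, the partner of MRPS18C on the platform (chr21:34073224-34143034, plus strand; 13.2% of its exon bases lie on the same strand as those of SLC5A3 and AP000317.2), at 20.3, 21.3 and 20.2 CPM with trametinib and 39.5, 39.8 and 39.8 CPM with DMSO, a log2 change of -0.94 ± 0.05. MRPL12, the stalk protein that also binds mitochondrial RNA polymerase (chr17:81703357-81707526, plus strand), was at 10.1, 10.6 and 11.5 CPM with trametinib and 20.2, 19.5 and 20.4 CPM with DMSO. Its log2 change was -0.90 ± 0.06, but 68.2% of its exon bases lie on the same strand as those of AC139530.2, so its counts are uncertain. MRPL58, a peptidyl-tRNA hydrolase that frees stalled ribosomes, was at 19.9, 20.1 and 19.9 CPM with trametinib and 33.1, 31.5 and 34.2 CPM with DMSO. The libraries of MRPS6, MRPL12 and MRPL58 did not overlap between trametinib and DMSO. MRPS36, the member outside the ribosome, was at 38.6, 39.2 and 38.8 CPM with trametinib and 44.5, 45.8 and 47.1 CPM with DMSO, a smaller fall of 15.2%.

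The 3 MRPS18 paralogues, which occupy different places in the particle, had falls of different size, which were not compared by a test. MRPS18C, the form of the small-subunit platform, had a log2 change of -0.54 ± 0.06, MRPS18B one of -0.25 ± 0.04 and MRPS18A one of -0.20 ± 0.06 (adjusted p = 0.0028). The call for MRPS18A was weak: its trametinib libraries at 17.0, 18.0 and 19.7 CPM overlapped the DMSO libraries at 19.2, 20.6 and 22.7 CPM. Without DMSO replicate 3 its change was -0.13 (adjusted p = 0.0638 by edgeR), with upper quartile factors its adjusted p was 0.116 and with library totals alone 0.883. Antisense exons overlap 47.0% of MRPS18A and 40.2% of MRPS18C, and whether the authors' counting used strand is not given in the sources used here.

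**Figure D1:**
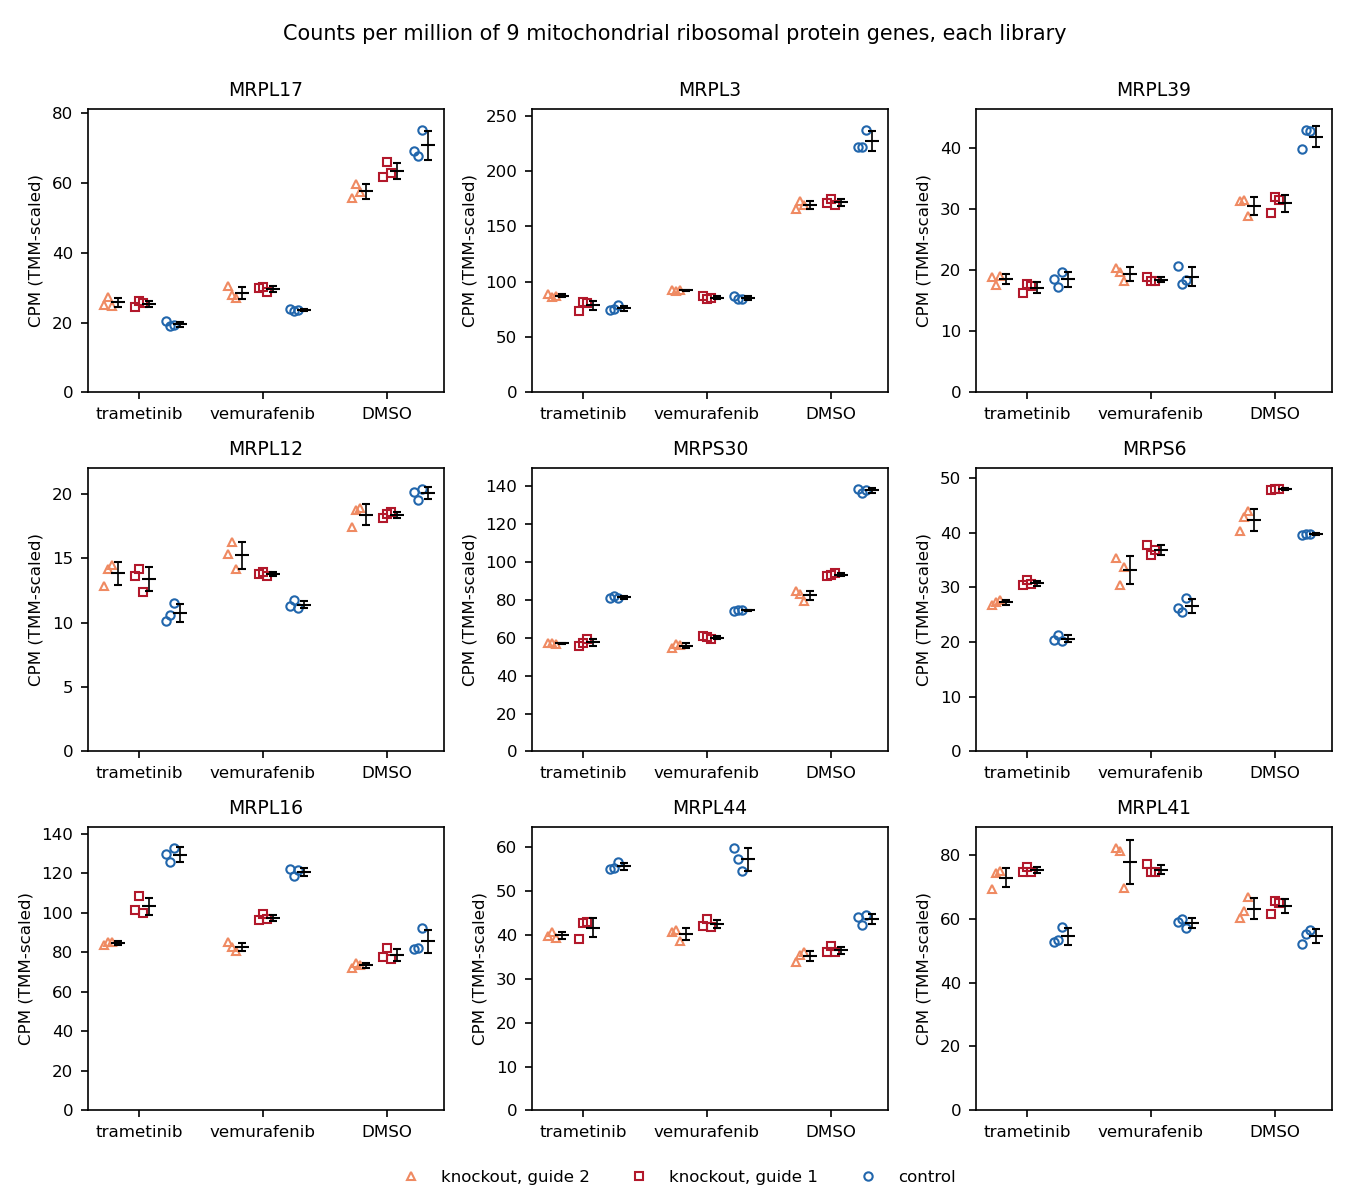
Level in CPM (TMM-scaled, y axis from 0) of 9 members in all 27 libraries, with the treatments trametinib, vemurafenib and DMSO on the x axis and guide 2 (triangles), guide 1 (squares) and control (circles) side by side. Black dashes are means with bars of 1 SD (n = 3); MRPL17 and MRPL3 stand lowest under both drugs in every population, MRPL16 and MRPL44 stand highest in drug-treated control cells, and MRPS30 stands lower in knockout than in control cells in each treatment.

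Vemurafenib gave counts of the same order in control cells: 65 members fell and 8 rose, against 31.6% of all genes tested that fell and 35.7% that rose; with library totals alone 58 fell and 11 rose. The median was -0.52 over the members and 0.06 over all genes. MRPL17 was at 23.8, 23.3 and 23.5 CPM with vemurafenib, and MRPL3 at 87.0, 84.2 and 84.9 CPM, with the DMSO libraries given above, for log2 changes of -1.59 ± 0.05 and -1.41 ± 0.03. MRPL39 (-1.14), MRPL18 (-1.13), MRPL50 (-1.09) and MRPL14 (-0.89), all of the large subunit, followed. The comparisons of the drugs with DMSO share the same DMSO libraries, so their values are set side by side only.

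The drugs were also compared directly. In control cells 13 members were higher with vemurafenib and 2 lower, against 8.78% of all genes tested that were higher and 7.56% that were lower. MRPS6 was at 26.2, 25.5 and 28.1 CPM with vemurafenib and 20.3, 21.3 and 20.2 CPM with trametinib, a log2 difference of 0.37 ± 0.05 (adjusted p = 2.5e-08), and the libraries did not overlap. MRPL17 (0.27 ± 0.05) and MRPL3 (0.17 ± 0.03) were also higher with vemurafenib. MRPS30, a large-subunit protein, was at 74.3, 74.5 and 74.6 CPM with vemurafenib and 80.9, 82.2 and 81.2 CPM with trametinib. Its log2 difference was -0.13 ± 0.03, and MRPL33 had one of -0.19 ± 0.05. Of the exon bases of MRPL33, 21.1% are shared on the same strand with BABAM2. The count of 13 higher members was 7 to 16 when 1 library was left out, with 7 or 8 without trametinib replicate 1 or 2 or vemurafenib replicate 2. In knockout cells 17 members were higher with vemurafenib than with trametinib and 0 lower, against 10.9% and 8.29% of all genes tested, with MRPS6 (0.27 ± 0.03) and MRPL17 (0.18 ± 0.03) first again; the count was 11 to 25 with 1 library left out, with 11 without trametinib replicate 1 of guide 2 and 25 without vemurafenib replicate 3 of guide 2. Beside that 0, edgeR gave 1 lower member at an unadjusted p under 0.05 and DESeq2's Wald test 0. With library totals alone 9 were higher and 4 lower in control cells and 9 higher and 2 lower in knockout cells, and with upper quartile factors 10 and 4 in control cells and 11 and 2 in knockout cells.

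A few members rose. MRPL16, a protein near the catalytic centre of the large subunit (chr11:59806135-59810872, minus strand), was at 129.6, 126 and 133 CPM with trametinib, 122, 119 and 122 CPM with vemurafenib and 81.7, 82.5 and 92.5 CPM with DMSO. Every drug-treated library lay above every DMSO library, and the log2 changes were 0.60 ± 0.04 with trametinib (adjusted p = 7.8e-20) and 0.50 ± 0.04 with vemurafenib. MRPL44, which has a fold like that of ribonuclease III and sits in the large subunit (chr2:223957404-223967714, plus strand), was at 55.1, 55.2 and 56.5 CPM with trametinib, 59.9, 57.2 and 54.5 CPM with vemurafenib and 44.2, 42.3 and 44.4 CPM with DMSO. Its libraries did not overlap with those under DMSO either, and its log2 changes were 0.35 ± 0.04 and 0.39 ± 0.04. MRPL53, a mitochondria-specific protein, was at 5.84, 6.505 and 6.33 CPM with trametinib and 4.02, 3.93 and 3.92 CPM with DMSO, a low level, and 45.2% of its exon bases are shared on the same strand with CCDC142. The smaller rises with trametinib were those of MRPS33 (0.26), MRPL45 (0.22), which lies at the exit of the nascent chain, MRPL10 (0.16) of the stalk base and MRPL28 (0.13), known as an antigen recognised by T cells in melanoma. MRPL28 missed the threshold without DMSO replicate 1 (0.10, adjusted p = 0.0951 by edgeR).

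MRPL41, a mitochondria-specific protein that has also been linked to apoptosis (chr9:137551199-137552555, plus strand), was at 52.6, 53.4 and 57.5 CPM with trametinib and 52.1, 55.2 and 56.6 CPM with DMSO, which overlapped. Along with MRPS17 and MRPS14 it was not called with trametinib. With vemurafenib it was at 58.9, 60.0 and 57.1 CPM, and its call (0.10 ± 0.05, adjusted p = 0.049 by edgeR) was lost with DESeq2's size factors (adjusted p = 0.109), with the Wald test of DESeq2 (0.126), with limma voom (0.0615) and without DMSO replicate 1 or 2 or vemurafenib replicate 1 or 2 (0.0712 to 0.245). MRPL40, MRPL34, MRPL38, MRPS14 and MRPS18A were not called with vemurafenib.

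**Figure D2:**
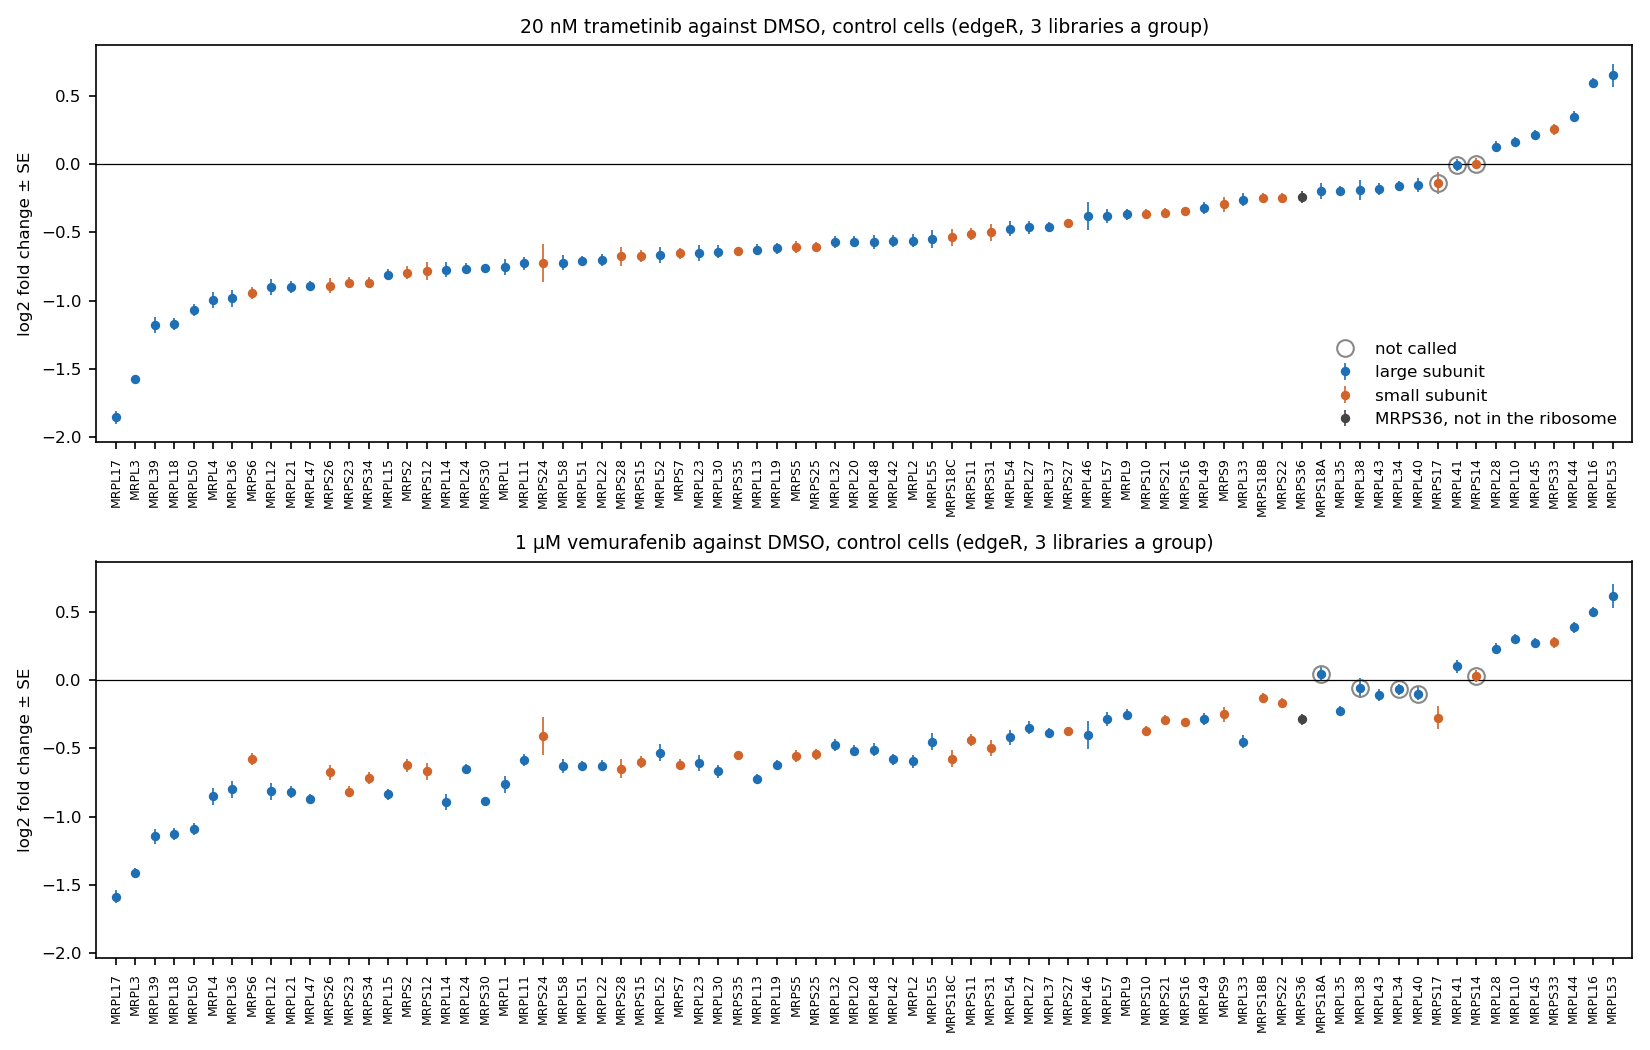
Log2 fold change of each of the 78 members in control cells, trametinib against DMSO (top) and vemurafenib against DMSO (bottom), with members sorted by the trametinib value on the x axis, bars of 1 standard error, and colours for the large subunit, the small subunit and MRPS36. Grey rings mark values not called; 68 members fell and 7 rose with trametinib, 65 fell and 8 rose with vemurafenib, and MRPL17 and MRPL3 lie lowest in both.

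In knockout cells without drug the changes were small and mostly downward with TMM scaling. Under DMSO, 46 members fell and 9 rose in knockout cells (both guides averaged) relative to control cells, against 28.6% and 29.3% of all genes tested, with a median of -0.12 over the members and 0.00 over all genes; with library totals alone in place of TMM the counts were 28 lower and 25 higher and the median of the members was 0.00, while the median of all genes moved up by 0.13. With guide 2, 40 members fell and 9 rose, against 26.9% and 28.1% of all genes tested, and with guide 1, 42 fell and 5 rose, against 25.1% and 26.9%. By subunit, 33 of 51 large-subunit members fell and 7 rose (median -0.15), and 13 of 26 small-subunit members fell and 2 rose (median -0.11).

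MRPS30, a mitochondria-specific protein of the large subunit (chr5:44808925-44820428, plus strand), had the largest fall. It was at 84.5, 83.2 and 79.6 CPM in guide 2 cells and 92.4, 93.3 and 94.2 CPM in guide 1 cells, against 139, 136 and 138 CPM in control cells, and no library of either guide overlapped with control. Its log2 change was -0.65 ± 0.03 (adjusted p = 9.5e-27 by edgeR), with -0.74 for guide 2 and -0.56 for guide 1. MRPL39 was at 31.4, 31.6 and 28.9 CPM with guide 2 and 29.4, 32.05 and 31.5 CPM with guide 1, against 39.9, 43.1 and 42.8 CPM in control cells. MRPL3 was at 166, 173 and 169 CPM with guide 2 and 171, 175 and 169 CPM with guide 1, against 222, 222 and 238 CPM in control cells. For both genes all knockout libraries lay below all control libraries, and the log2 changes were -0.44 ± 0.05 and -0.41 ± 0.03. MRPL30 (-0.45 ± 0.04) and the small-subunit proteins MRPS15 (-0.43 ± 0.04) and MRPS27 (-0.42 ± 0.02) also fell. Of the exon bases of MRPL30, 32.6% lie on the same strand as those of AC079447.1 and AC092587.1, so its counts are uncertain. With guide 2 and guide 1 the log2 changes were -0.51 and -0.38 for MRPL30, -0.43 and -0.44 for MRPS15, and -0.42 and -0.42 for MRPS27.

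The members that rose in DMSO-treated knockout cells did so by less. MRPL41 was at 60.1, 62.5 and 66.8 CPM with guide 2 and 61.4, 65.4 and 65.0 CPM with guide 1, against 52.1, 55.2 and 56.6 CPM in control cells, a log2 change of 0.22 ± 0.04. The knockout libraries lay above the control libraries without overlap. MRPS33 rose by 0.19 and MRPS6 by 0.18 on average, but MRPS6 was called with guide 1 (0.27) and not with guide 2 (0.09). MRPL53 (0.23), MRPL27 (0.14) and MRPL52 (0.13) also rose, and the call for MRPL52 was lost without some single libraries (adjusted p up to 0.177 by edgeR). MRPL12 had a log2 change of -0.13 with an adjusted p of 0.031, and that call was lost without single libraries of either side (adjusted p 0.0624 to 0.113), namely DMSO replicate 1 or 3 of control cells, replicate 1 of guide 1 or replicate 1 of guide 2. With library totals alone its value was 0.00.

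Under the drugs the balance turned: more members were higher than lower in knockout cells. With trametinib 37 members were higher and 17 lower in knockout than in control cells, against 27.1% and 28.8% of all genes tested, with a median of 0.09 over the members and -0.02 over all genes. With vemurafenib 36 were higher and 17 lower, against 27.3% and 28.3%, with a median of 0.08. With library totals alone, 53 were higher and 7 lower under trametinib and 52 higher and 10 lower under vemurafenib. Leaving out TMM moves all genes up in these comparisons, not the members alone. The shares of all genes above are with TMM scaling, so the counts with library totals alone cannot be judged against them. The TMM factors were 1.04 to 1.09 in drug-treated knockout libraries, against 0.964 to 1.00 in drug-treated control libraries. Guide 2 gave 35 higher and 15 lower members under trametinib (27.2% of all genes tested in either direction), and guide 1 gave 26 higher and 16 lower (23.6% and 25.8%). Under vemurafenib guide 2 gave 36 higher and 16 lower (27.1% and 26.9%), and guide 1 gave 31 higher and 15 lower (23.9% and 24.6%).

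The members that moved most differed in direction. MRPS6 was at 26.8, 27.4 and 27.7 CPM in guide 2 cells and 30.3, 31.3 and 30.6 CPM in guide 1 cells with trametinib, against 20.3, 21.3 and 20.2 CPM in control cells, a log2 change of 0.49 ± 0.04 with no overlap. MRPL41 was at 69.3, 74.4 and 74.8 CPM with guide 2 and 74.7, 76.2 and 74.7 CPM with guide 1, against 52.6, 53.4 and 57.5 CPM in control cells, again without overlap (0.44 ± 0.04). MRPL17 was at 25.1, 27.4 and 24.9 CPM with guide 2 and 24.4, 26.2 and 25.7 CPM with guide 1, against 20.4, 19.0 and 19.2 CPM in control cells (0.39 ± 0.04). All 3 genes thus stood higher in knockout cells under trametinib. MRPL12, at 12.8, 14.2 and 14.5 CPM with guide 2 and 13.6, 14.2 and 12.4 CPM with guide 1 against 10.1, 10.6 and 11.5 CPM in control cells, had a log2 change of 0.34 ± 0.05. MRPS24 had the largest value, 0.58 ± 0.12, at a low level and with 23.2% of its exon bases shared with the readthrough gene URGCP-MRPS24. MRPL52 (0.43) and MRPL23 (0.35), which lines the exit of the tunnel, were also higher.

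MRPS30, MRPL16 and MRPL44 stood lower in drug-treated knockout cells. MRPS30 was at 57.1, 57.3 and 56.9 CPM with guide 2 and 55.9, 57.4 and 59.3 CPM with guide 1 under trametinib, against 80.9, 82.2 and 81.2 CPM in control cells (-0.51 ± 0.03). MRPL16 was at 83.8, 85.1 and 85.3 CPM with guide 2 and 102, 108 and 99.98 CPM with guide 1, against 129.6, 126 and 133 CPM in control cells (-0.47 ± 0.03). MRPL44 was at 39.6, 40.7 and 39.3 CPM with guide 2 and 39.1, 42.7 and 43.0 CPM with guide 1, against 55.1, 55.2 and 56.5 CPM in control cells (-0.45 ± 0.03). In none of the 3 did a knockout library overlap with a control library. The smaller values were those of MRPL53 (-0.31), MRPS18A (-0.30) and MRPL30 (-0.23). Under vemurafenib the lowest values were those of MRPL44 (-0.47 ± 0.03), MRPS18A (-0.44 ± 0.05) and MRPL16 (-0.43 ± 0.03), with MRPS30 at -0.36 ± 0.03, and the highest those of MRPS6 (0.39 ± 0.04), MRPL41 (0.38 ± 0.04) and MRPL12 (0.35 ± 0.05). The 3 knockout comparisons use different libraries from each other, both for knockout and for control.

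**Figure D3:**
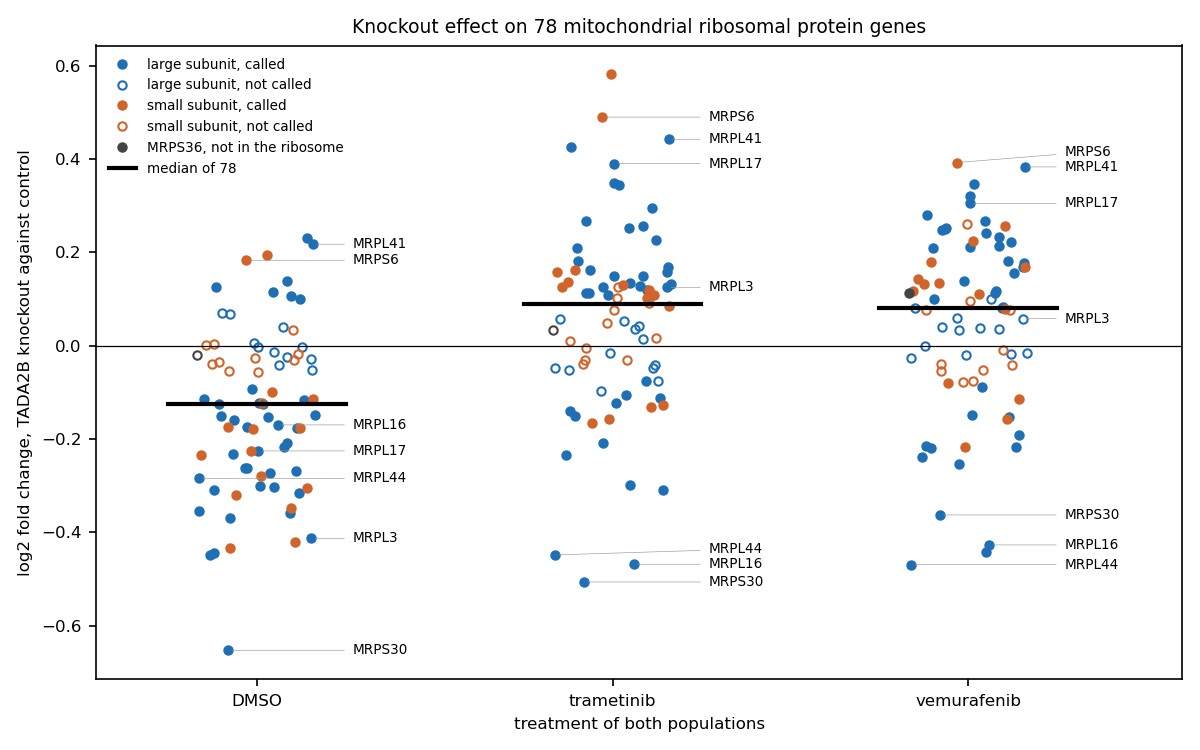
Log2 fold change of each member, knockout (both guides averaged) against control, under DMSO, trametinib and vemurafenib (x axis); each point is 1 of 78 members, filled where called, and the black line is the median. The median lies at -0.12 under DMSO, 0.09 under trametinib and 0.08 under vemurafenib with TMM scaling, and with library totals alone the DMSO median is 0.00.

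In knockout cells, too, both drugs lowered most members, with medians nearer to 0. With trametinib 63 members fell and 7 rose in knockout cells, against 34.3% and 37.2% of all genes tested, with a median of -0.36 over the members and 0.04 over all genes. In control cells the members' median was -0.57. In guide 2 cells 62 fell and 6 rose (30.2% and 31.5% of all genes tested; median -0.33), and in guide 1 cells 63 fell and 8 rose (31.4% and 32.4%; median -0.36). With vemurafenib 62 fell and 10 rose, against 33.1% and 36% of all genes tested, with a median of -0.29, against -0.52 in control cells. In guide 2 cells 60 fell and 7 rose (29.4% and 30.5%), and in guide 1 cells 61 fell and 9 rose (30% and 30.9%). With library totals alone 53 fell and 13 rose with trametinib, and 47 fell and 14 rose with vemurafenib. MRPL17 (-1.24 ± 0.03 with trametinib), MRPL3 (-1.04 ± 0.02), MRPL18 (-0.98 ± 0.03), MRPL39 (-0.79 ± 0.04), MRPL50 (-0.75 ± 0.03) and MRPS23 (-0.71 ± 0.03) had the largest falls. MRPL16 (0.30), MRPL41 (0.22), MRPS33 (0.19), MRPL44 (0.19), MRPL45 (0.18) and MRPL10 (0.17) rose. The responses of knockout and control cells, which share no library, ranked the members alike: over the 78 members Pearson's r was 0.92 and Spearman's rho 0.89 for trametinib, and 0.93 and 0.88 for vemurafenib, as a description across genes that are not independent replicates. The slope of the knockout on the control response was 0.63 for trametinib and 0.62 for vemurafenib.

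The difference between the responses was tested as an interaction, the log2 response in knockout cells less the log2 response in control cells. For trametinib 49 members had a positive interaction and 3 a negative one, against 20.8% and 23.2% of all genes tested, and the median was 0.18 over the members and -0.02 over all genes. For vemurafenib 49 were positive and 3 negative, against 20% and 22.4%, with a median of 0.19. Positive calls for trametinib were 33 of 51 in the large subunit, 16 of 26 in the small subunit, 32 of 46 among members with a bacterial counterpart and 17 of 31 among the mitochondria-specific members.

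MRPL17 fell by 57.7% with trametinib in knockout cells and by 72.4% in control cells, an interaction of 0.62 ± 0.06 (adjusted p = 9.8e-13 by edgeR). Its level with trametinib was higher in knockout cells (above), and its level with DMSO was lower, at 55.8, 59.9 and 57.3 CPM with guide 2 and 61.7, 66.1 and 62.9 CPM with guide 1 against 69.2, 67.8 and 75.4 CPM in control cells. MRPL3 fell by 51.3% in knockout cells and by 66.5% in control cells, an interaction of 0.54 ± 0.04. MRPL36 (0.57 ± 0.07), MRPL11 of the stalk base (0.48 ± 0.06), MRPL23 (0.47 ± 0.07) and MRPS24 (0.61 ± 0.17) also had a smaller fall in knockout cells. With vemurafenib the largest positive values were those of MRPL17 (0.53 ± 0.06), MRPL15 (0.48 ± 0.05), MRPL12 (0.47 ± 0.07), MRPL3 (0.47 ± 0.04), MRPL36 (0.45 ± 0.07) and MRPL39 (0.44 ± 0.07).

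The 3 negative interactions belonged to members that rose in control cells. MRPL16 rose by 23.1% with trametinib in knockout cells and by 51.4% in control cells (-0.30 ± 0.04), MRPL44 by 13.8% in knockout cells and 27.5% in control cells (-0.16 ± 0.05), and MRPL53 had an interaction of -0.54 ± 0.11. The vemurafenib values were -0.26, -0.19 and -0.42. For these genes, too, the response was smaller in knockout cells. Without DMSO replicate 3 of control cells, 6 members were called with a negative vemurafenib interaction.

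**Figure D4:**
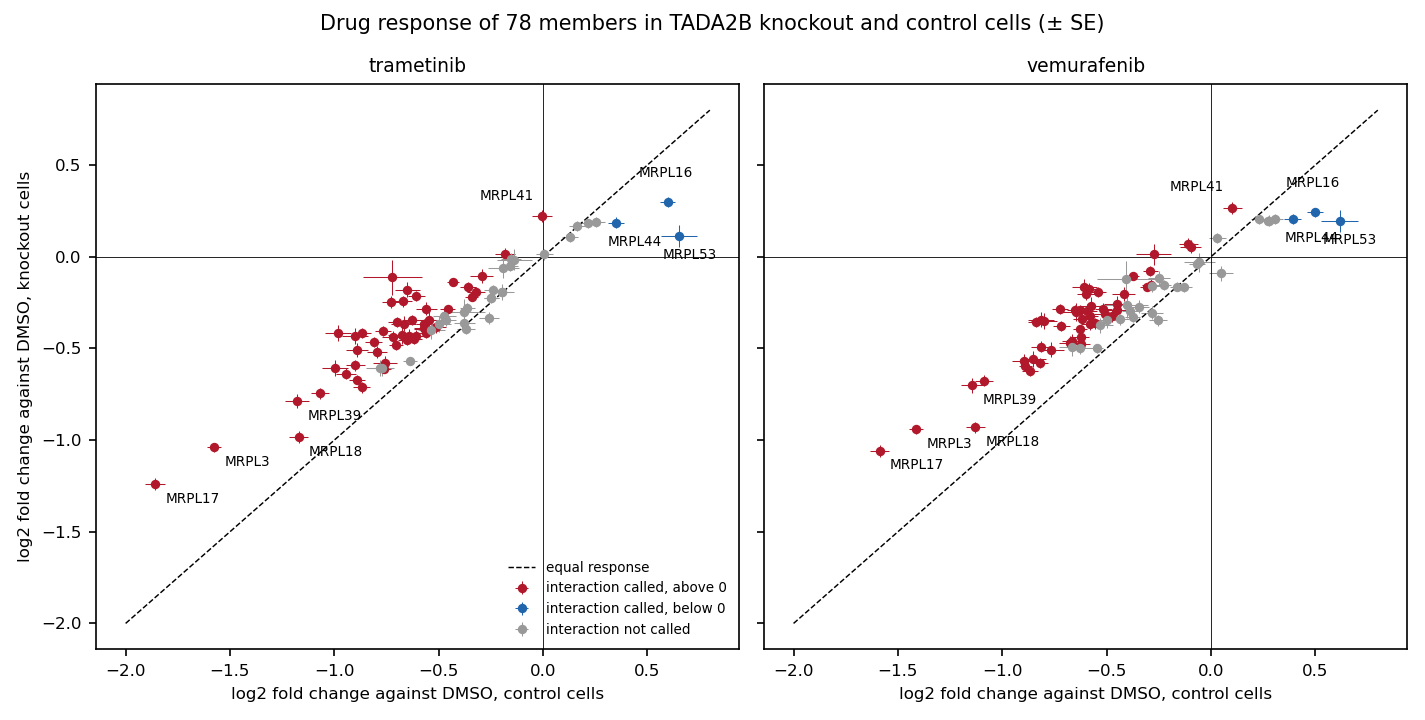
Log2 response of each member to trametinib (left) and vemurafenib (right) in control cells (x axis) and in knockout cells (y axis, both guides averaged), with bars of 1 standard error and a dashed line of equal response. Red points had a positive interaction (49 members for each drug), blue points a negative one (3 for each drug) and grey points none that was called; most points of members that fell lie above the line, nearer to 0 in knockout cells.

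The guides differed for a few members, in numbers near or below the shares of all genes tested with TMM scaling. Under DMSO 3 members were lower with guide 2 than with guide 1 and 0 higher, against 7.29% of all genes tested that were lower and 4.64% that were higher: MRPS6 (-0.18 ± 0.04), MRPS30 (-0.18 ± 0.03) and MRPL17 (-0.14 ± 0.04). Beside the 0 higher members, edgeR gave 0 at an unadjusted p under 0.05 and DESeq2's Wald test 0. The libraries of MRPS30 did not overlap between the guides. Under trametinib 10 members were higher and 2 lower with guide 2, against 10.8% and 8.91% of all genes tested, and MRPL16 differed most, at 83.8, 85.1 and 85.3 CPM with guide 2 and 102, 108 and 99.98 CPM with guide 1 (-0.29 ± 0.04). The count of 10 was 5 to 10 with 1 library left out, with 5 or 6 without trametinib replicate 1 of guide 1 or replicate 2 or 3 of guide 2. Under vemurafenib 2 members were higher and 3 lower with guide 2, against 7.12% and 8.85%. With 1 library left out the higher count was 0 to 5 and the lower 1 to 3. The higher count was 1 without vemurafenib replicate 1 or 2 of guide 1, 0 without replicate 3 of guide 1, 3 without replicate 2 of guide 2 and 5 without replicate 3 of guide 2; the lower count was 1 without replicate 1 of guide 1 and 2 without replicate 2 of guide 1 or replicate 1 or 2 of guide 2. With library totals alone the higher and lower counts were 3 and 2 under DMSO and 13 and 1 under vemurafenib, so the balance between the guides depended on the scaling. With upper quartile factors they were 6 and 3 under trametinib and 5 and 3 under vemurafenib.

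Other genes of mitochondrial gene expression were followed in lists written from general knowledge. In control cells 32.5% of all genes tested fell and 36.4% rose with trametinib, and 31.6% fell and 35.7% rose with vemurafenib. These shares are with TMM scaling, and some lists below lie near them. In control cells with trametinib the 5 other subunits of the mitochondrial ribosome in the lists all fell (median -0.61), among them GADD45GIP1 (-0.85 ± 0.05), DAP3 (-0.61 ± 0.03) and PTCD3 (-0.61 ± 0.03). Of 30 assembly factors 19 fell and 7 rose (median -0.27), or 16 and 10 with library totals alone. TFB1M, the methyltransferase of the small ribosomal RNA, was at -2.39 ± 0.06, C1QBP at -1.33 ± 0.04 and RBFA at -1.25 ± 0.08. Of 16 translation factors 9 fell and 4 rose (6 and 6 with library totals alone), with TSFM, an elongation factor, at -0.65 ± 0.05 and MTIF3, an initiation factor, at 0.52 ± 0.05. Of 20 mitochondrial aminoacyl-tRNA synthetases 13 fell and 4 rose (10 and 6), with AARS2 at -0.92 ± 0.05. Of 12 genes of mitochondrial DNA and transcription 9 fell and 1 rose, with TFB2M at -1.32 ± 0.03 and SSBP1, the single-stranded DNA binding protein, at -1.24 ± 0.04. Of 19 genes of RNA processing 17 fell and 2 rose, with SLIRP, the partner of LRPPRC in stabilising mitochondrial messages, at -1.55 ± 0.05. Of the 26 genes listed under protein import 22 fell and 1 rose (median -0.73). TOMM40, the pore of the outer membrane, was at -1.79 ± 0.04. HSPE1, a mitochondrial chaperone placed in this list, was at -1.95 ± 0.05. With vemurafenib the lower and higher counts were 5 and 0 for the other subunits, 17 and 7 for assembly, 17 and 1 for RNA processing and 22 and 1 for import.

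The protein genes of mitochondrial DNA, which mitochondrial ribosomes translate, and those of the cytosolic ribosome and the respiratory chain were followed as well. Of the 13 protein genes of mitochondrial DNA, 5 rose and 0 fell with trametinib in control cells (median 0.14). Of all genes tested 36.4% rose and 32.5% fell in this comparison, so the count that rose is near the share of all genes. As polyA libraries were made, the level of mitochondrially encoded genes depends on capture of short tails. Of 86 cytosolic ribosomal protein genes 57 fell and 6 rose (median -0.16), but with library totals alone 24 fell and 28 rose (median 0.03). All 16 ATP synthase genes fell (median -0.44), and 24 of 38 complex I genes fell and 4 rose (median -0.23), or 12 of 16 and, for complex I, 15 lower and 11 higher with library totals alone. Among regulators, MYC was at -4.07 ± 0.11 and PPRC1, a co-activator of the PGC-1 family, at -1.57 ± 0.04, whereas PPARGC1A was at 3.19 ± 0.11, with 0.9 CPM in control cells with DMSO. Whether any of these bears on the members was not tested.

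In knockout cells under DMSO the cytosolic ribosomal protein genes mostly fell: 83 of 86 were lower and 1 higher (median -0.34), or 76 and 1 with library totals alone, with RPL12 at -0.57 ± 0.03 and RPS3A at -0.56 ± 0.03. All 13 mitochondrially encoded protein genes rose (median 0.49), with MT-ND1 at 0.96 ± 0.06 and MT-CO2 at 0.70 ± 0.04. Protein import had 20 of 26 genes lower and 0 higher (median -0.26), or 16 and 5 with library totals alone. Of the assembly factors 20 of 30 were lower and 5 higher, or 10 and 9 with library totals alone, with TFB1M at -0.97 ± 0.05. Of all genes tested 28.6% fell and 29.3% rose in this comparison with TMM scaling. MYC was at -1.22 ± 0.07 and PPARGC1A at 2.70 ± 0.11. The trametinib interaction was positive for 61 of the 86 cytosolic ribosomal protein genes and negative for 1 (median 0.15), positive for 17 of 26 import genes (median 0.23) and for all 16 ATP synthase genes (median 0.25), and its largest value in these lists belonged to TFB1M (1.36 ± 0.07). For the mitochondrially encoded genes it was positive for 0 and negative for 1 by edgeR, and for 0 and 3 at an unadjusted p under 0.05. Over all genes tested 20.8% had a positive and 23.2% a negative trametinib interaction.

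**Figure D5:**
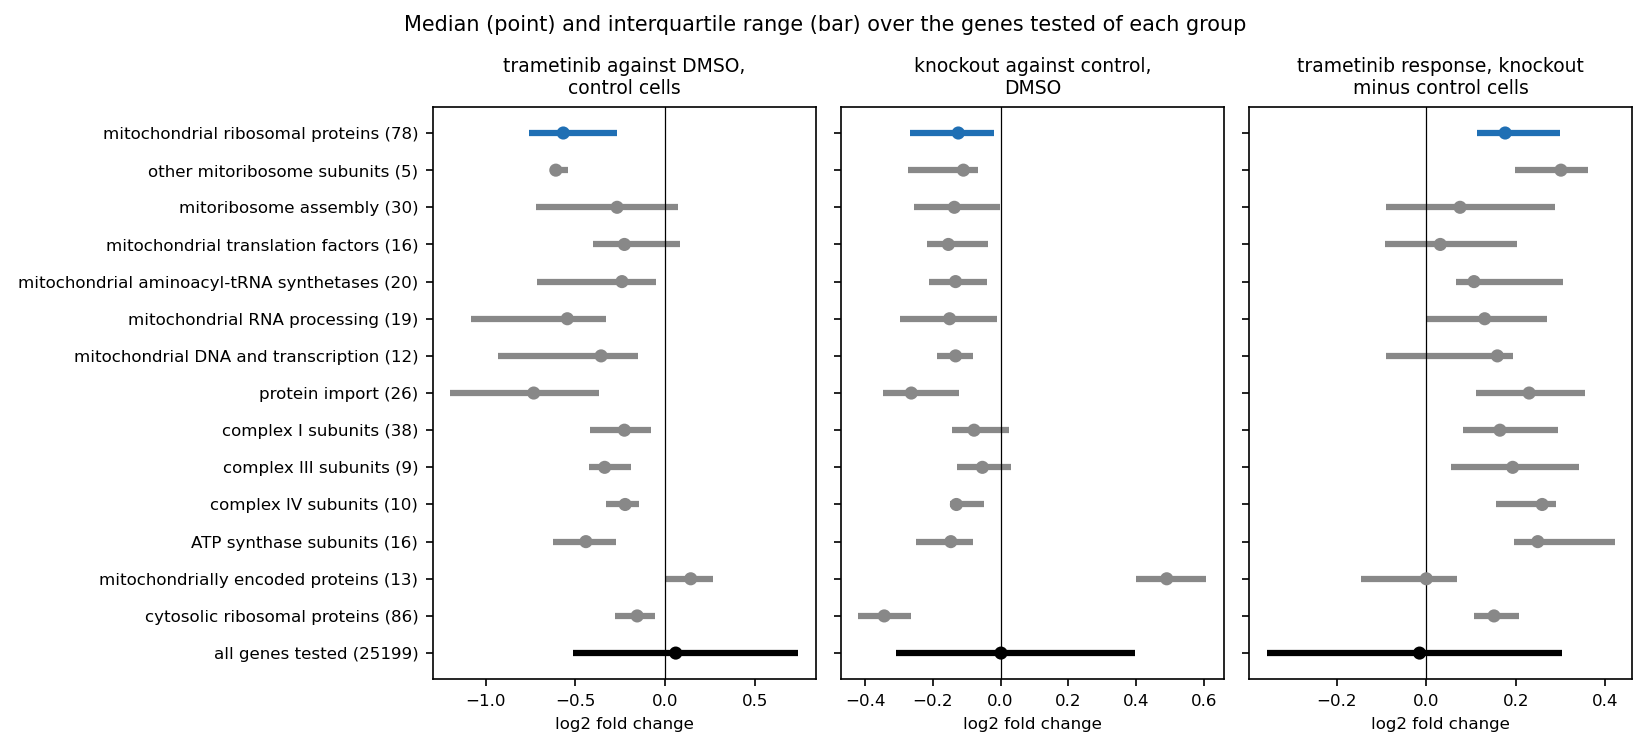
Median (point) and interquartile range (bar) of the log2 fold change in 15 gene groups, for trametinib against DMSO in control cells, knockout against control under DMSO, and the trametinib interaction. The members lie at -0.57, -0.12 and 0.18 with TMM scaling (0.00 for the knockout comparison with library totals alone), and the mitochondrially encoded genes lie above 0 in the knockout comparison (0.49).

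The members lie on 21 chromosomes. Of the 78, 29 (37.2%) have the start of another protein-coding gene on the opposite strand within 1000 bp, head to head, against 13.0% of 19969 protein-coding genes of GENCODE 29. Of the 27 such members that fell with trametinib in control cells, 14 partners fell, 10 rose, 2 were not called and 1 was not tested. Of all genes tested 32.5% fell and 36.4% rose. The 29 members include some whose partner starts past their own start, so that the genes overlap. Examples are MRPS18B with PPP1R10 and MRPS7 with GGA3. MRPL18 and its partner TCP1, a subunit of the cytosolic chaperonin, lie 63 bp apart and changed by -1.17 and -1.38, and MRPL36 and NDUFS6, a subunit of complex I, lie 34 bp apart and changed by -0.98 and -0.85. By contrast MRPL30 changed by -0.64 and its partner MITD1, 21 bp away, by 0.37, and MRPL52 by -0.67 and SLC7A7, 59 bp away, by 2.44. MRPL46 and MRPS11 are each other's partner, 34 bp apart, and both are counted among the partners that fell.

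Promoter letters were searched in the 69 members with an entry, from 250 bases before to 50 bases after the RefSeq start, on both strands, among 35116 promoters of the same length. The ETS motif CCGGAAG was found in 29 (42.0%, against 10.3% of all promoters), the YY1 motif AANATGGCG in 18 (26.1%, against 3.19%), the NRF1 motif (GCGCA, any base, GCGC) in 8 (11.6%, against 5.78%) and the E-box CACGTG in 6 (8.7%, against 7.26%). At least 1 of the 4 was present in 48 members (69.6%, against 22.5%). Each member entered once, whereas the 35116 promoters were not limited by gene type or to a single entry per gene. They outnumber the 19940 protein-coding genes of the count table, so the promoter sets are unlike. The last 3 letters of CCGGAAG can be shared with the start of AANATGGCG. The median trametinib change in control cells was -0.49 in members with any of the 4 and -0.64 in those with none. A match is a run of letters and not a measured binding site.

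Some members share exon bases with another gene or have pseudogene copies, and the counts were looked at without them. Of 37 members with no exon shared with another gene on either strand, 32 fell and 4 rose with trametinib in control cells (median -0.67), and of the 41 with some overlap 36 fell and 3 rose (median -0.56). Of the 34 with an annotated pseudogene, whose reads the counting could split, 30 fell and 3 rose (median -0.50), and of the 44 without 38 fell and 4 rose (median -0.66). The 20 members with neither overlap nor pseudogene, for which 17 fell and 2 rose (median -0.76), include MRPL17. In the knockout under DMSO 14 of those 20 fell and 3 rose (median -0.16), and 15 had a positive trametinib interaction (median 0.22). Of the 16 members with same-strand overlap, 6 fell and 2 rose in the knockout under DMSO (median -0.04). Among all genes tested 32.5% fell and 36.4% rose with trametinib in control cells. In the knockout under DMSO the shares were 28.6% and 29.3%, and 20.8% had a positive trametinib interaction.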

How the data were processed

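RNA-seq libraries of A375 cells were made with a stranded polyA kit, per the labels' protocols. The authors deposited 1 table of raw read counts per gene, not normalized. Per the submitters' processing notes, bcl2fastq, HISAT2 and HTSeq were used with hg38. For versions, annotation release and strand setting, the sources used here give nothing. All 27 columns were mapped to samples by their names, 0 were unused, and 0 rows named no gene.

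Genes were annotated with GENCODE 29, and upstream sequences came from RefSeq (GRCh38.p14). Low counts were removed with filterByExpr, leaving 25199 genes. The test was edgeR 4.0.16's quasi-likelihood test (R 4.3.3, TMM factors 0.866 to 1.09, robust) over 9 group means with 18 residual degrees of freedom and Benjamini-Hochberg adjustment over all genes, called at an adjusted p under 0.05. The biological coefficient of variation was 4.02%. CPM came from edgeR. The knockout effect averaged both guides. Errors of log2 changes are standard errors and those of CPM are SDs. The test was tried on simulated data. Libraries of a group all differed by more than sampling noise (chi-square per degree of freedom 2.94 to 12), so none was counted as a copy.

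The members, the lists and the rule for named genes were chosen with earlier results of these data known. The text names the 6 largest called rises and falls per comparison, MRPL12, MRPL58, MRPS36, MRPS30, MRPL28, MRPL41 and the MRPS18 genes, members against the main direction, 2 to 4 genes per list and the extremes of level; a few are given by count only. Alternatives were DESeq2 1.42.0 size factors, its Wald test, library totals, upper quartile factors, limma 3.58.1 voom, no low-count filter, only the groups compared, a replicate block, leaving out each library, and a 1.5-fold minimum.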

Additional observations from a re-analysis of the deposited data

Results flagged for a closer look

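The drug responses of knockout and control cells differed, by the interaction in edgeR's quasi-likelihood test, for the following named members. With trametinib the log2 difference between the responses was 0.62 for MRPL17, 0.61 for MRPS24, 0.57 for MRPL36, 0.54 for MRPL3, 0.48 for MRPL11 and 0.47 for MRPL23, all of which fell by less in knockout cells. It was -0.54 for MRPL53, -0.30 for MRPL16 and -0.16 for MRPL44, which rose in control cells. With vemurafenib it was 0.53 for MRPL17, 0.48 for MRPL15, 0.47 for MRPL12, 0.47 for MRPL3, 0.45 for MRPL36 and 0.44 for MRPL39, and -0.42 for MRPL53, -0.26 for MRPL16 and -0.19 for MRPL44. The interactions of both drugs share the DMSO libraries.

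The knockout guides differed from each other under the same treatment for a few members. Their numbers lay near or below the shares of all genes tested given above, with TMM scaling. Under DMSO guide 2 minus guide 1 was -0.18 for MRPS6, -0.18 for MRPS30 and -0.14 for MRPL17 on the log2 scale. Under trametinib it was -0.29 for MRPL16 and -0.17 for MRPS6, and 0.18 for MRPL48, 0.17 for MRPL42, 0.17 for MRPL1, 0.16 for MRPL22, 0.15 for MRPS9 and 0.15 for MRPL3. Under vemurafenib it was -0.23 for MRPL16, -0.15 for MRPS6 and -0.10 for MRPS30, and 0.12 for MRPS7 and 0.11 for MRPL3. MRPL16 and MRPS6 were the genes lower with guide 2 under both drugs.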

How the results depend on the processing

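Of 196 called results for named members, 156 kept their direction and call in every setting, 40 lost the call in some setting and 3 changed sign. All 3 changed sign with library totals alone: MRPL10 and MRPL12 in knockout against control under DMSO (0.011 and 0.0021) and MRPS18B with vemurafenib in control cells (0.031). The counts of members lower with either drug, in control or knockout cells, stayed within 1.5 times of the main count in all settings except the 1.5-fold minimum.

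With a 1.5-fold minimum, trametinib had 37 lower and 2 higher members in control cells and 13 and 0 in knockout cells, and vemurafenib 31 and 1 in control cells and 7 and 0 in knockout cells. Knockout against control then had 1 lower and 0 higher under DMSO and 0 in both directions under either drug. The interaction had 2 positive and 0 negative for trametinib and 0 of either for vemurafenib. Vemurafenib against trametinib and guide 2 against guide 1 had 0 in each direction. The share of all genes that met this minimum was not computed, so whether these counts are unusual cannot be told.

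With library totals alone, knockout against control had 28 lower and 25 higher members under DMSO, 7 lower under trametinib and 10 lower under vemurafenib. Trametinib in knockout cells had 13 higher, the vemurafenib interaction 5 negative, vemurafenib against trametinib 4 lower in control cells and 2 lower and 9 higher in knockout cells. Guide 2 against guide 1 had 3 higher under DMSO, and 1 lower and 13 higher under vemurafenib. With upper quartile factors, trametinib in knockout cells had 12 higher, vemurafenib against trametinib 4 lower in control cells and 2 lower and 11 higher in knockout cells, and guide 2 against guide 1 had 6 higher under trametinib and 5 higher under vemurafenib. DESeq2's Wald test gave 4 lower for vemurafenib against trametinib in control cells and 5 lower for the guides under DMSO. Fits to only the groups compared gave 4, and 8 lower for the guides under DMSO, with 1 lower and 0 higher under vemurafenib. The causes were not tested.

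With 1 library left out, vemurafenib against trametinib had 7 to 16 higher members in control cells and 11 to 25 in knockout cells. The vemurafenib interaction had 3 to 6 negative members. Guide 2 against guide 1 had 5 to 10 higher under trametinib, and 1 to 3 lower and 0 to 5 higher under vemurafenib. The other counts stayed within 1.5 times of the main ones, with 65 to 68 lower for trametinib in control cells, 38 to 47 lower for the knockout under DMSO and 42 to 54 positive trametinib interactions.

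Replicate numbers recur in the labels, but libraries with the same number did not deviate together: r lay between -0.053 and 0.054 in 108 pairs, and 10 of 27 libraries correlated best with their own number. With the replicate block the counts were within 1 of the main ones, for example 16 lower members in knockout against control under trametinib and 50 positive vemurafenib interactions, and no call of a named member was lost. Depth limits the members with few counts, MRPS24 (at least 95 per library) and MRPL53 (at least 273).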
